A study of Rattus norvegicus with 210 samples.

Results

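The mediobasal hypothalamus (MBH) of female Sprague-Dawley rats exposed perinatally to ketoconazole (KTZ) at 6 mg/kg bw/day, the group K6, was compared with that of vehicle-exposed controls at postnatal day (PND) 22. The members were the libraries of these 2 groups as the labels name them, 5 of each, which makes 10 of the 210 libraries of the series. Dams received corn oil alone (control) or KTZ in corn oil by daily gavage, starting on gestational day 7 and, after a pause at birth, ending at PND22, so that controls shared the gavage, the oil and the age and pups were reached only through the dam. Each library holds messenger RNA of the MBH of 1 pup, and the dam or litter of a pup is not given in the labels, so the p-values measure the spread between these pups. Between 18459642 and 22522907 reads per control library and between 17238992 and 19599911 per K6 library were counted on genes.

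KTZ is an imidazole antifungal that inhibits cytochrome enzymes of steroid synthesis, and at PND22 the rat is weaned and still before puberty. The MBH contains the arcuate and ventromedial nuclei and the median eminence. Kisspeptin neurons of the arcuate nucleus drive the pulsatile release of gonadotropin-releasing hormone (GnRH), while neighbouring Agrp and Pomc neurons regulate feeding. Inhibitors such as the ubiquitin ligase Mkrn3 and the polycomb repressors hold the system back until puberty, and over the same weeks oligodendrocytes go on to myelinate the tissue. The thalamus lies directly above the hypothalamus, so that the depth of a dissection decides how much of it is included.

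The labelled age was first checked against the transcripts. An age score was taken as the mean log2(CPM + 0.5) of 100 genes higher at PND42 minus that of 100 genes lower at PND42 than at PND22, chosen from control libraries of the preoptic area (POA) alone. CPM scales each count to the sum of all counts in that library. In the POA, where none of the exposed libraries had served to choose the genes, the score lay between -1.4 and -0.392 in 30 exposed libraries labelled PND22 and between 0.515 and 1.36 in 30 labelled PND42. The 5 MBH control libraries labelled PND22 scored -1.16, -0.793, -0.766, -0.664 and -0.565, within the range of the PND22 libraries of the POA. The 5 K6 libraries labelled PND22 scored 1.05, 1.2, 1.46, 1.51 and 1.31, none of them near the controls of their own labelled age. MBH controls labelled PND42 scored between 0.258 and 1.34, and those labelled PND90 between -0.891 and -0.624. The scores of other groups also departed from those of controls of their labelled tissue and age. Of the MBH libraries labelled K12 at PND42, 4 of 5 scored between -0.951 and -0.736, and in the POA at PND90, where controls scored between 0.651 and 1.14, the 5 labelled K12 scored between -0.849 and -0.606 and 4 of the 5 labelled K6 between -0.787 and -0.676. The POA libraries labelled K12 at PND90 also had a summed level of mammillary body markers of 40 to 53 CPM. POA controls of that age had 1.96 to 5.05 CPM and MBH controls 37.7 to 58.6. In the POA libraries labelled K6 at PND90 the sum ranged from 2.89 to 47.6 CPM. Labels were kept as deposited, and whether samples, tissues or ages were exchanged was not tested.

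**Figure D1:**
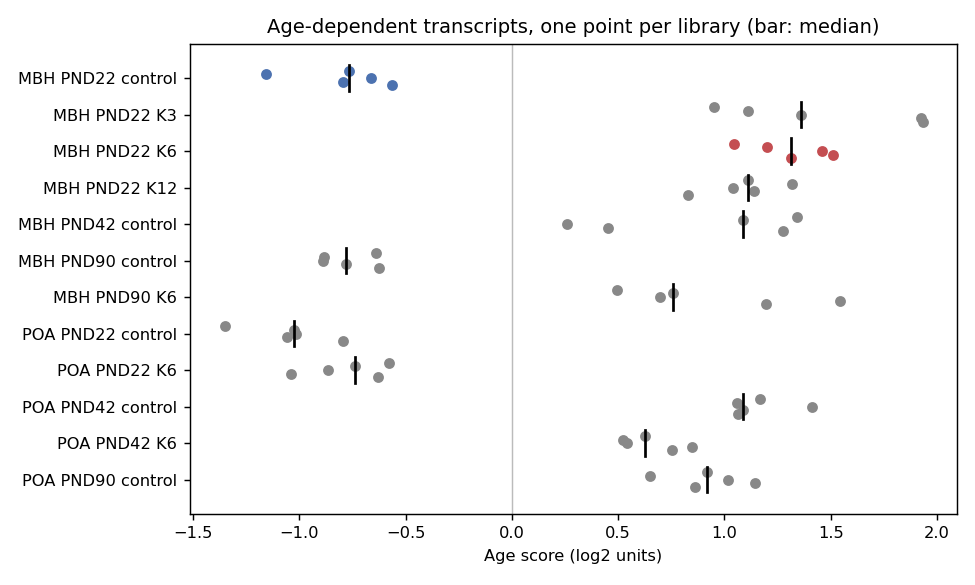
Age score (log2 units, x axis) of single libraries by labelled tissue, age and group (y axis), with a bar at the median of 5. The K6 libraries of the MBH labelled PND22 lie between 1.05 and 1.51 and the MBH controls labelled PND42 between 0.258 and 1.34, while the PND22 controls of the MBH lie between -1.16 and -0.565.

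Direct comparisons were added after the data had been seen. Between K6 at PND22 and MBH controls labelled PND42, 0 of 14695 genes were called at an adjusted p-value under 0.05 by the quasi-likelihood test of edgeR (Benjamini-Hochberg), with 657 genes at an unadjusted p-value under 0.05 and 1 gene called by DESeq2. Between the MBH controls labelled PND42 and PND22 it called 2295 of 14861 genes (15.4%), a comparison that shares its PND22 controls with that of K6, and between those labelled PND90 and PND22 it called 10 of 14745 (0.0678%, 2189 unadjusted and 315 by DESeq2). In the POA, 3852 of 14350 genes (26.8%, 13.5% higher and 13.3% lower) were called between PND42 and PND22 controls, a comparison that shares no library with K6 against control in the MBH. Of the 1938 genes higher at PND42 there, 1179 (60.8%) were higher and 4 lower in the MBH libraries labelled K6 than in their controls, and of the 1914 lower genes 1090 (56.9%) were lower and 6 higher. Without POA PND22 control replicate 4, a library that stood apart in its mammillary transcripts, these shares were 59.3% and 54.2%. From the other side, 2279 of 4724 genes called in K6 and tested in both (48.2%) were called in the POA age comparison, and 2445 were not. In these 10 libraries, the exposure and the age profile of the libraries cannot be told apart. K6 stands here for the libraries so labelled, and the values of the PND42 controls are given beside theirs.

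Between K6 and control in the MBH at PND22, 4822 of 14733 genes were called (32.7% of the genes tested), 2325 higher (15.8%) and 2497 lower (16.9%) in K6. For 3081 genes (20.9%) no K6 library overlapped any control library in CPM. The changes were mostly modest, with a median absolute log2 fold change of 0.45 among the higher and 0.48 among the lower genes, and 316 higher and 249 lower genes differed more than 2-fold. Changes over 4-fold were found for 56 higher and 11 lower genes. The median over all genes tested was -0.02. Scaling shifted the balance, with 1963 higher and 2987 lower genes by library sizes alone and 2551 higher and 2303 lower by the size factors of DESeq2. In 1 fit of all 7 groups of this tissue and age, in which they share 1 estimate of the spread, 2181 genes were called. Besides control, K6 and KTZ at 3 and 12 mg/kg bw/day, these groups are diethylstilbestrol, a synthetic estrogen, at 3, 6 and 12 µg/kg bw/day, whose libraries had age scores of 0.117 to 1.89. Reads on mitochondrial genes made up 6.80% to 7.38% in control and 4.59% to 8.67% in K6, and those on ribosomal protein genes 1.04% to 1.10% and 1.16% to 1.71%, and the part of this difference in the results was not tested.

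**Figure D2:**
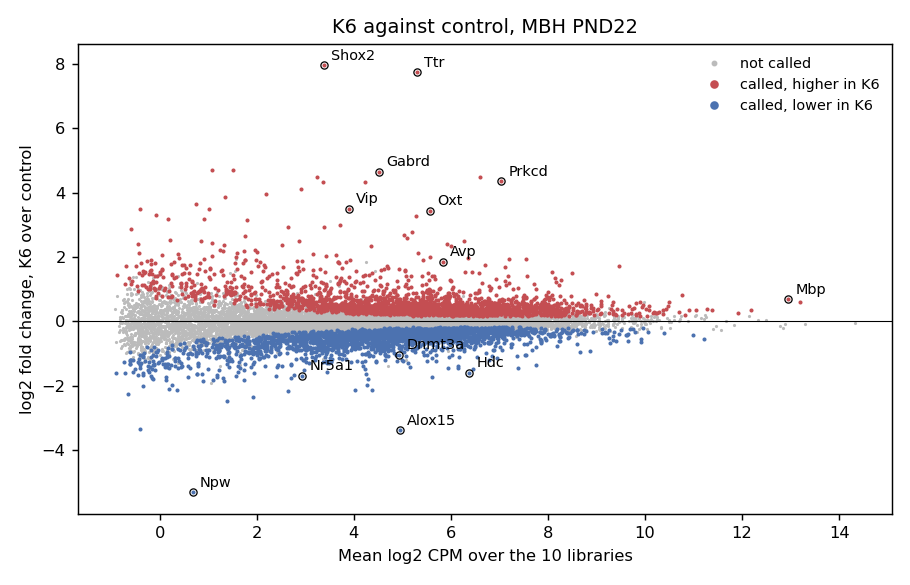
log2 fold change of K6 over control (y axis) against the mean log2 CPM over the 10 libraries (x axis) for the 14733 genes tested in the MBH at PND22. The 2325 higher genes reach further from 0 than the 2497 lower ones, with Shox2 at 7.95 and Npw at -5.30.

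Rises and falls were ranked among called genes with a symbol, a mean log2 CPM of 1 or more and no overlap of the groups. The largest rise so ranked was that of Shox2 (ENSRNOG00000012478), a homeobox gene of thalamic neurons. Its level was 0, 0.0537, 0.0929, 0.217 and 0.0444 CPM in control replicates 1 to 5 and 8.27, 14.4, 18.2, 24.1 and 36.6 CPM in K6 replicates 1 to 5. The gene was thus nearly absent from every control library, with 8 counts in all, and present in every K6 library, with 1912. The K6 to control ratio of CPM was 262 (95% interval 133 to 608, counting error only), and the log2 fold change was 7.95 (SE 0.56, adjusted p = 6.4e-06). In PND42 controls Shox2 ranged from 1.30 to 23.4 CPM.

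Gabrd, the delta subunit of extrasynaptic GABA-A receptors, had 1.59, 2.20, 1.86, 1.25 and 1.95 CPM in control and 12.7, 32.1, 46.1, 50.5 and 73.9 CPM in K6. Prkcd, a protein kinase C isoform dense in thalamic relay neurons, had 15.4, 11.4, 14.4, 7.96 and 13.0 CPM in control and 88.5, 179, 218, 257 and 489 CPM in K6. In both genes K6 replicate 1 was the lowest and replicate 5 the highest of its group, and all 5 stood above control. Gabrd rose by 4.64 on the log2 scale (SE 0.41, adjusted p = 2.1e-05) and Prkcd by 4.35 (SE 0.39, adjusted p = 2.3e-05). The PND42 controls were split for them, with 55.1, 51.1 and 24.3 CPM of Gabrd in replicates 1, 2 and 5 but 1.43 and 2.98 in replicates 3 and 4. The other genes among the 10 largest rises so ranked were Gbx2, Il12rb2, Ptpn3, Mybpc1, Slc17a7, Wnt9b and Rab37, with log2 fold changes from 4.10 to 4.70. Called genes whose groups overlapped were not ranked.

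The largest fall among called genes with a mean log2 CPM of 1 or more and no overlap of the groups was that of Alox15 (ENSRNOG00000019183). It is the arachidonate lipoxygenase that inserts oxygen into polyunsaturated fatty acids. Alox15 had 66.8, 39.5, 86.0, 36.5 and 54.2 CPM in control and 4.83, 4.93, 3.74, 9.23 and 3.62 CPM in K6, with a log2 fold change of -3.38 (SE 0.28, adjusted p = 2.0e-05). The lowest control library stood well above the highest K6 library. PND42 controls had 2.52 to 8.11 CPM. The other 9 genes with the largest falls, with log2 fold changes from -2.47 to -1.77, included the collagen genes Col2a1, Col20a1 and Col22a1, the erythrocyte anion exchanger Slc4a1 and the G protein-coupled receptor gene Pgr15l, which had 28.5 to 42.9 CPM in control and 4.24 to 11.7 in K6. Between K6 and PND42 controls 0 of 14695 genes were called, so the lack of a call says nothing particular about these 20. For the rises, the log2 differences of K6 from PND42 controls ran from 0.51 (Mybpc1) to 1.24 (Gbx2). For the falls they ran from -1.24 (Col2a1) to 0.004 (Alox15). The 95% interval was -0.22 to 2.7 for Gbx2 and -2.3 to -0.17 for Col2a1. These intervals do not show that the groups are alike.

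Marker lists showed which parts of the brain were represented. In bulk RNA, fewer cells of a type and less RNA per cell cannot be told apart. The counts called in each list stand beside the 32.7% of all genes tested that were called, 15.8% higher and 16.9% lower. Of 9 thalamic markers tested, 8 were higher and 0 lower in K6, with a median log2 fold change of 2.34 against -0.02 over all genes. Their summed level was 123, 123, 132, 116 and 125 CPM in control and 291, 482, 487, 593 and 851 CPM in K6. Every K6 library exceeded every control by more than 2-fold, and among PND42 controls the sum ranged from 146 to 600 CPM. The part of thalamic RNA in other results was not tested. Gbx2, a transcription factor of thalamic precursors, had a log2 fold change of 4.70 (SE 0.62), and Ramp3, a receptor activity modifying protein, rose from 7.48 ± 0.696 to 69.7 ± 32.0 CPM (mean ± SD, n = 5, log2 fold change 3.26). The exception was Tnnt1, at 0.338 to 5.57 CPM in control and 0.879 to 5.53 in K6.

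Lists of nuclei within the hypothalamus came next. Of 6 ventromedial markers tested, 6 were lower in K6, with a median of -0.80. Nr5a1, the steroidogenic factor that specifies this nucleus, had 13.5, 15.0, 9.84, 7.80 and 12.2 CPM in control and 4.78, 4.53, 2.58, 2.97 and 2.75 CPM in K6. The groups did not overlap, and the fold change was -1.69 on the log2 scale (SE 0.21, adjusted p = 0.00021). PND42 controls had 3.46 to 6.98 CPM. Sox14 (-1.58), Gda (-0.85), Fezf1 (-0.75), Dlk1 (-0.67) and Adcyap1, which encodes the peptide PACAP (-0.57), fell as well. Fezf1 was no longer called without control replicate 1 or without control replicate 2, and in the fit of the 7 groups 3 of the 6 kept a call, Gda, Fezf1 and Dlk1 being the others.

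In the arcuate list, 4 of 7 genes tested were lower and 0 higher. Agrp, the orexigenic antagonist of melanocortin receptors, had 14.6, 16.6, 15.8, 17.3 and 11.2 CPM in control and 5.26, 7.19, 6.76, 5.11 and 6.12 CPM in K6, with all K6 libraries below all controls (log2 fold change -1.27, SE 0.15, adjusted p = 0.00011). Ghrh, the growth hormone-releasing hormone, fell by 0.93 and the transcription factor Tbx3 by 1.12. Pomc, the melanocortin precursor, had overlapping groups at 27.3 to 55.4 and 21.5 to 34.2 CPM, and its call (log2 fold change -0.51, adjusted p = 0.049) was lost with limma-trend, with the size factors of DESeq2 and without any 1 of control replicates 1, 2 and 3 and K6 replicates 1, 2, 4 and 5. In the fit of the 7 groups 1 gene of the list was called, and Agrp and Ghrh were not. Cartpt had 86.6 ± 6.80 and 87.9 ± 13.9 CPM, and Npy was listed at 0 in all 10 libraries.

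The lateral and tuberomammillary list had 3 of 5 genes lower and 1 higher. Hdc, the histidine decarboxylase that makes histamine in the tuberomammillary nucleus, had 139, 90.9, 177, 115 and 112 CPM in control and 52.0, 44.8, 40.4, 29.3 and 38.4 CPM in K6 (log2 fold change -1.58, SE 0.17, adjusted p = 8.4e-05), with no overlap. In PND42 controls it had 42.8 to 79.6 CPM. Npvf, which encodes RFamide-related peptides that restrain GnRH neurons, fell by 1.21, whereas Lhx9, a LIM homeobox gene also found in the thalamus, rose by 3.16. Hcrt, the orexin precursor, fell by 0.41, a call lost without any 1 of control replicates 2, 4 and 5 and K6 replicates 1, 3 and 4. The Hcrt and Npvf calls were not made in the fit of the 7 groups.

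Markers of other regions were called in part. In the midbrain dopamine list 2 of 3 genes tested were higher, and the dopamine transporter gene Slc6a3 had 4.05 to 19.6 CPM in control, 32.0 to 154 in K6 and 3.83 to 22.5 in PND42 controls (log2 fold change 2.77, SE 0.52, adjusted p = 0.0022). Of the habenula list 2 of 4 were higher, of the preoptic and septal list 2 of 3, of the cortical list 3 of 7 with 1 lower, of the hippocampal list 0 of 2 with 1 lower, of the striatal list 0 of 7 with 2 lower, and of the mammillary list 1 of 6 with 2 lower. The summed mammillary level was 20.4 to 58.2 CPM in control, 23.0 to 32.7 in K6 and 2.01 to 4.19 in the POA libraries labelled K6 at PND22. This level did not follow the labelled tissue in every group of the series. It was 2.6 to 4.0 CPM in MBH libraries labelled K6 at PND42 and 40 to 53 in POA libraries labelled K12 at PND90. Both MBH groups compared here lay above the POA libraries labelled K6 at PND22. Several of these calls were lost when 1 library was left out, for most of them any 1 of several. Irx2 (1.10) lost its call without any 1 of control replicates 1, 2, 3 and 5 and K6 replicates 3 and 4, Tbr1 (1.72) without control replicate 2, 3 or 5 or K6 replicate 2, and Fezf2 (-0.70) without control replicate 1, 2 or 3 or K6 replicate 2, 3 or 4. Lhx8 (0.96) lost it without control replicate 2, 3 or 5 or K6 replicate 1, 3, 4 or 5, and Barhl1 (-1.14) without control replicate 3 or 4 or K6 replicate 1, 2, 3 or 4. The hippocampal C1ql2 lost it without control replicate 2 or K6 replicate 3 and the mammillary Foxa2 without control replicate 3. In the fit of the 7 groups no gene of the hippocampal or mammillary list was called and 1 of the cortical list.

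**Figure D3:**
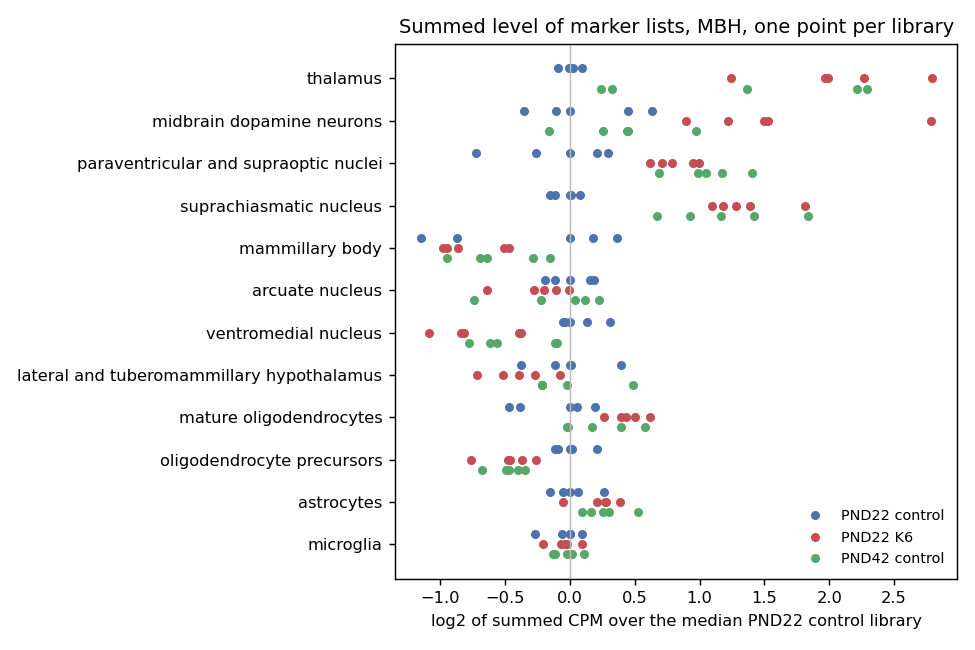
Summed CPM of marker lists in single MBH libraries, as log2 of the ratio to the median PND22 control (x axis), for control and K6 at PND22 and control at PND42. The thalamic sum of K6, at 291 to 851 CPM, lies to the right of the controls, and the ventromedial sum, at 118 to 194 CPM, to their left.

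Glial and vascular lists came next. Of 13 genes of mature oligodendrocytes, 10 were higher and 0 lower in K6, with a median log2 fold change of 0.51. Mbp, which encodes myelin basic protein, had 4811, 5022, 6444, 7684 and 6704 CPM in control and 7868, 9104, 10620, 11470 and 9128 CPM in K6. The lowest K6 library lay just above the highest control, and the log2 fold change was 0.69 (SE 0.14, adjusted p = 0.0036). PND42 controls had 6240 to 11900 CPM. In the fit of the 7 groups 7 genes of the list were higher, and Mbp was not called. Ermn, the cytoskeletal protein ermin of late oligodendrocytes, rose by 1.11 (SE 0.15), while Mag, Cnp and Ugt8 had log2 fold changes of -0.18, 0.14 and 0.03 and were not called.

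In earlier stages of the lineage the called genes were lower. Gpr17 (ENSRNOG00000025745), the receptor of newly forming oligodendrocytes, had 104, 102, 118, 97.5 and 97.2 CPM in control and 38.3, 43.5, 32.8, 41.2 and 39.1 CPM in K6. These groups were far apart and narrow, with a log2 fold change of -1.37 (SE 0.08, adjusted p = 2.1e-06), and PND42 controls had 32.5 to 45.4 CPM. Of 6 genes of newly forming oligodendrocytes 2 were lower and 4 were not called, a called share of 33.3% beside the 32.7% of all genes tested. Of 4 genes of precursors 3 were lower (75%), among them Pdgfra, the receptor for platelet-derived growth factor (-0.42), and the proteoglycan Cspg4 (-0.59). Pdgfra was not called in the fit of the 7 groups.

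Few other cell type markers were called. The called share was 20% for astrocytes, microglia and immature neurons and 27.3% for endothelial and mural cells, beside the 32.7% of all genes tested. Astrocytes had 1 of 10 genes higher (S100b, 0.82) and 1 lower, microglia 1 of 10 higher and 1 lower, tanycytes and ependymal cells 0 of 9 higher and 1 lower, endothelial and mural cells 0 of 11 higher and 3 lower, immature neurons 0 of 5 higher and 1 lower (Dcx, -0.75), and dividing cells and leptomeningeal fibroblasts 0 of 7 and 0 of 5 in either direction. Ttr, the transthyretin of the choroid plexus, was at 0.549 to 1.13 CPM in 4 K6 libraries and at 390 CPM in K6 replicate 4, and its call was lost without that library. Of 3 blood genes 2 were lower, and reads of hemoglobin genes can be split between near-identical copies. Of 3 pituitary genes tested, Tshb, the beta chain of thyrotropin, rose by 2.12, and Lhb, the beta chain of luteinizing hormone, fell by 0.77, a call lost without control replicate 2 or 3.

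The genes of the GnRH pulse generator and of puberty bore on the question of the study, how steroid-disrupting chemicals affect the hypothalamic control of puberty. Of 27 tested, 2 were higher and 11 lower in K6, with a median of -0.29. The called share was 48.15%, beside the 32.7% of all genes tested. Gnrh1 itself had 0.379 to 1.83 CPM in control and 0.816 to 2.20 in K6 (log2 fold change 0.28, SE 0.39). Of the pulse generator's own peptides, Kiss1 and Tac3 were not called, with Kiss1 at 1.25 to 2.74 and 0.612 to 1.48 CPM (-0.79, SE 0.30, adjusted p = 0.060) and Tac3, which encodes neurokinin B, at 14.1 to 17.8 and 12.1 to 27.6 CPM (0.27, SE 0.18). Pdyn, which encodes the third peptide of these neurons, dynorphin, fell by 0.78.

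Mkrn3, a ubiquitin ligase that restrains GnRH release before puberty, had 3.48, 3.38, 3.62, 3.31 and 2.31 CPM in control and 1.72, 1.62, 1.10, 1.46 and 1.53 CPM in K6. Even the lowest control exceeded all K6 libraries (log2 fold change -1.07, SE 0.19, adjusted p = 0.0016), and PND42 controls had 1.07 to 1.76 CPM. Igsf10, which guides the migration of GnRH neurons, had 19.1 to 29.7 and 10.6 to 16.9 CPM (-0.98, adjusted p = 0.0007). Nkx2-1, a homeobox factor of the ventral hypothalamus, fell by 1.38, the nuclear receptor Nr0b1 by 1.02, the axon guidance gene Sema3a by 0.79 and the lysophospholipase gene Pnpla6 by 0.35. In the fit of the 7 groups 2 genes of the list were higher and 5 lower, and Nr0b1 and Sema3a were not called. Without control replicate 1 the Nr0b1 call was lost too.

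The 2 higher genes of the list were Nsmf and Sema7a. Nsmf, a synapse-to-nucleus messenger involved in GnRH neuron migration, had 150, 144, 139, 140 and 130 CPM in control and 212, 268, 525, 473 and 502 CPM in K6. All K6 libraries were higher, 3 of them by more than 3-fold (log2 fold change 1.54, SE 0.22, adjusted p = 0.0004). Its PND42 controls ranged from 163 to 444 CPM, the lowest being replicates 3 and 4, which also had the least Gabrd. Sema7a, a membrane semaphorin, had 32.2 to 41.1 CPM in control and 60.2 to 127 in K6 (1.27, adjusted p = 0.00024).

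Among 22 neuropeptides tested, 4 were higher and 9 lower, with a median of -0.20 and a called share of 59.1% beside the 32.7% of all genes. Oxt (ENSRNOG00000021225), which encodes oxytocin, had 9.31, 13.6, 7.66, 2.27 and 7.81 CPM in control and 69.6, 84.2, 92.1, 92.2 and 87.4 CPM in K6. The K6 level was 5 or more times the highest control level in every library, and the log2 fold change was 3.43 (SE 0.29, adjusted p = 2.0e-05). Avp (ENSRNOG00000021229), which encodes vasopressin, had 25.5, 42.6, 26.0, 8.78 and 23.1 CPM in control and 120, 95.8, 56.9, 62.8 and 104 CPM in K6, again without overlap (1.85, SE 0.31, adjusted p = 0.0012). PND42 controls had 67.5 to 152 CPM of Oxt and 62.8 to 145 of Avp. These genes are neighbours with a near-identical exon, so that reads of one may have been counted on the other. Of the other genes of the paraventricular and supraoptic nuclei, Sim1, Otp, Crh and Trh were not called, with log2 fold changes from -0.55 to 0.43.

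The promoters of both genes are shown because the oxytocin promoter is a textbook example of one that nuclear receptors, the class of proteins through which steroids act, can bind. The sequences are from RefSeq (rat build GRCr8) and run from 250 bases before to 50 bases after the start of the gene, 5′ to 3′ on its strand, with capitals at each TGACC or GGTCA, the core motif of many such receptors on either strand, of which no copies overlap here. Oxt lies on the plus strand at chr3:138235504-138235803 and Avp on the minus strand at chr3:138248473-138248772.
Oxt: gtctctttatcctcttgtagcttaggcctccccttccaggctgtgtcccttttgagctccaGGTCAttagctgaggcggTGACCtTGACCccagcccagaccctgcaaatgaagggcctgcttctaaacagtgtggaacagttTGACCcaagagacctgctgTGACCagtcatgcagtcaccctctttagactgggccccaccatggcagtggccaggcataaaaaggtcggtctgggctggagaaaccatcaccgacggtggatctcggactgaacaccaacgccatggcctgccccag
Avp: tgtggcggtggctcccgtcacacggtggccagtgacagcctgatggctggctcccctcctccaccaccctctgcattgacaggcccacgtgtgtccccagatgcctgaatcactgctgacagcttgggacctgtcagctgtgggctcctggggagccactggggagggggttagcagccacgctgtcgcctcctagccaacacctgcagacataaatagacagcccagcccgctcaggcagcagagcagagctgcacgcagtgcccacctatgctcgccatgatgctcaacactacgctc
The Oxt window holds 5 copies of the motif and the Avp window 0. Of 33469 promoters of this length, 40.5% hold at least 1, 11.1% at least 2 and 0.0926% at least 5.

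Vip, the vasoactive intestinal peptide of the suprachiasmatic nucleus, had 0.676, 1.72, 4.09, 3.31 and 2.44 CPM in control and 18.0, 20.9, 41.0, 27.1 and 27.8 CPM in K6, with 12.5 to 41.2 CPM in PND42 controls. No library overlapped (log2 fold change 3.50, SE 0.35, adjusted p = 4.6e-05), and in the same nucleus Grp rose by 1.03 and the transcription factor Six6 fell by 0.85, a call lost without control replicate 1 or 2 or K6 replicate 4. Cck, cholecystokinin, rose by 2.67, from 4.88 to 11.8 CPM in control to 20.8 to 86.0 in K6, with K6 replicate 1 the lowest and replicate 5 the highest, as for Shox2 and Gabrd.

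Npw (ENSRNOG00000012390), neuropeptide W, fell by 5.30 on the log2 scale (SE 0.50, adjusted p = 3.5e-05). It had 291 counts over the control libraries (2.08 to 4.19 CPM) and 6 over the K6 libraries (0 to 0.220 CPM), a control to K6 ratio of CPM of 44.2 (95% interval 20.1 to 121, counting error only). In PND42 controls it was at 0 to 0.0446 CPM. Galanin (Gal) fell by 0.56, a call not made in the fit of the 7 groups, which called 4 neuropeptide genes higher and 2 lower.

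**Figure D4:**
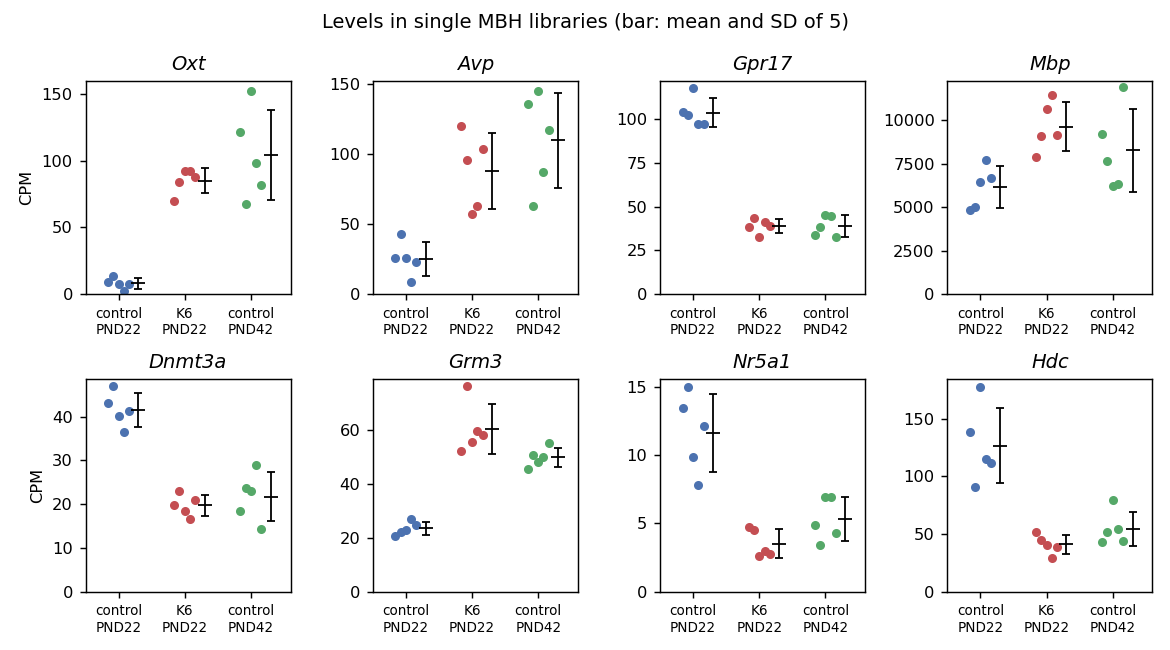
CPM (y axis) of 8 genes in single MBH libraries of control and K6 at PND22 and control at PND42, with the mean and SD of 5 beside the points. For Gpr17, K6 (32.8 to 43.5 CPM) and PND42 control (32.5 to 45.4) occupy the same range, below PND22 control (97.2 to 118).

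Of 19 receptors for feeding and metabolic signals, 1 was higher and 9 lower, with a median of -0.40 (52.6% called, beside 32.7% of all genes). Crhr2, a receptor for urocortins, fell by 1.12, the GLP receptor gene Glp1r by 0.99, the neuropeptide Y receptor gene Npy2r by 0.86 and the melanocortin receptor gene Mc3r by 0.77. In the fit of the 7 groups 6 of the 19 were lower and 0 higher, Npy2r not being called. Glp1r had 5.82 to 8.93 CPM in control and 2.86 to 4.41 in K6. The higher gene was Npy1r (0.63), not called in that fit, and the leptin receptor gene Lepr had 1.20 to 1.93 and 1.32 to 2.09 CPM.

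Steroid and other nuclear receptors had 5 of 31 genes higher and 7 lower, a called share of 38.7% beside the 32.7% of all genes tested, with a median of -0.00. Esr1, estrogen receptor alpha, had 20.03, 17.9, 16.0, 15.3 and 16.1 CPM in control and 13.8, 9.63, 13.7, 7.98 and 6.28 CPM in K6. All 5 K6 libraries stood below the controls (-0.69, SE 0.19, adjusted p = 0.016), within 6.28 to 13.8 CPM against 8.15 to 14.8 in PND42 controls. Esr2, Pgr and the glucocorticoid receptor gene Nr3c1 were not called, with log2 fold changes from -0.06 to -0.00. Esrrb and Esrra, the estrogen-related receptors, rose by 0.95 and 0.55, calls not made in the fit of the 7 groups. The Esr1 call was not made in that fit either. Pparg, with 19 counts in control and 25 in K6, was too low to be tested.

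The enzymes that KTZ acts on belong to steroid and cholesterol synthesis. Of 19 steroid genes tested, 7 were higher and 0 lower, with a median of 0.23. The called share was 36.8%, beside 32.7% of all genes tested. Cyp46a1, the cholesterol hydroxylase of neurons, had 81.1, 89.6, 76.4, 84.9 and 83.6 CPM in control and 119, 138, 169, 190 and 233 CPM in K6 (1.07, SE 0.15, adjusted p = 0.00038). No library overlapped, and the order of the K6 libraries was that of their Shox2 levels. PND42 controls had 97.9 to 201 CPM. Hsd11b1, which regenerates active glucocorticoids, rose by 0.94 and Srd5a1, a steroid reductase, by 0.71, while Cyp11a1 and Cyp17a1 were too low to be tested and aromatase, Cyp19a1, was not called (-0.27).

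Of 22 cholesterol genes, 11 were higher and 1 lower, with a median of 0.23, against 5 higher and 0 lower in the fit of the 7 groups. The called share was 54.55%, beside the 32.7% of all genes tested. Msmo1, the methylsterol monooxygenase, had 113, 119, 138, 140 and 137 CPM in control and 180, 189, 190, 215 and 186 CPM in K6 (0.61, SE 0.08, adjusted p = 0.00027). Cyp51, the lanosterol demethylase and the enzyme class through which azoles act in fungi, had 220 to 279 CPM in control and 298 to 349 in K6 (0.37, SE 0.08, adjusted p = 0.0048). For neither gene did the ranges overlap, and PND42 controls had 158 to 217 CPM of Msmo1 and 277 to 371 of Cyp51.

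Of 11 glucocorticoid targets, 6 were higher and 0 lower, with a median of 0.54 (54.55% called, beside 32.7% of all genes). Sgk1, a kinase induced by corticosteroids, had 44.4, 29.7, 41.1, 37.2 and 50.1 CPM in control and 140, 97.0, 58.7, 88.2 and 187 CPM in K6 (1.54, SE 0.25, adjusted p = 0.0011). The K6 libraries varied more than 3-fold among themselves but all exceeded control, and Sgk1 is also abundant in oligodendrocytes. Fkbp5 and Per1 were not called (0.12 and 0.03). In the thyroid list 1 of 13 genes was higher and 4 lower, including the thyrotropin receptor gene Tshr (-0.997) and the thyroid hormone-binding Crym (-0.80), which was not called in the fit of the 7 groups. The called share of this list was 38.5%, beside 32.7% of all genes tested.

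Among PPAR targets and genes of fatty acid oxidation 4 of 24 were higher and 1 lower, and among drug-responsive genes 2 of 8 higher and 0 lower, shares of called genes below the 32.7% of all genes. Pdk4, which spares glucose, rose by 0.93 and Ucp2, a mitochondrial carrier, fell by 0.66. The Pdk4 call was lost without control replicate 2, control replicate 4 or K6 replicate 5 and in the fit of the 7 groups. In the list of IGF, growth hormone and JAK-STAT signaling 2 of 19 were higher and 5 lower, 36.8% beside 32.7% of all genes. Socs3, a feedback inhibitor of cytokine receptors, fell by 1.25, Ghr, the growth hormone receptor, by 0.63 and Stat3 by 0.55, and Igfbp5, an IGF-binding protein, rose by 0.72.

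Of 17 circadian clock genes, 7 were higher and 1 lower, a called share of 47.1% beside the 32.7% of all genes. Ciart, a repressor of the clock, rose by 1.10 and Dbp, a clock output, by 0.69, with 55.9 to 69.7 CPM in control and 82.3 to 134 in K6, and Per3 fell by 0.67. Of 15 immediate early genes, which respond to recent stimulation, 5 were higher and 0 lower, with a median of 0.50. Their called share was 33.3%, beside 32.7% of all genes tested. Dusp1, a phosphatase of MAP kinases, had 13.3, 14.9, 15.6, 20.7 and 19.3 CPM in control and 54.9, 30.4, 42.5, 56.1 and 59.7 CPM in K6 (1.58, SE 0.18, adjusted p = 0.00011), without overlap. Fos rose by 0.98, with overlapping ranges of 8.36 to 21.5 and 17.2 to 33.9 CPM, and Nr4a1 by 0.86, a call not made by DESeq2 and lost without any 1 of control replicates 1, 2, 3 and 5 and K6 replicates 1, 3, 4 and 5. The hour at which each brain was taken is not given in the labels.

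**Figure D5:**
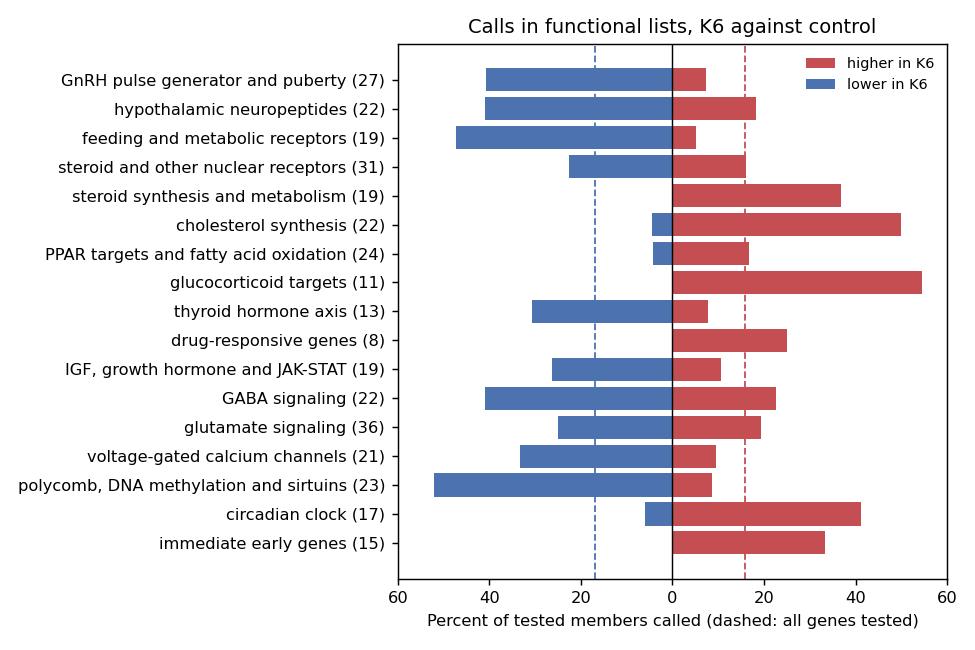
Percent of the tested members of each functional list called higher (right) or lower (left) in K6 than in control, with the number tested in parentheses and dashed lines at the shares of all genes, 15.8% and 16.9%. Cholesterol and glucocorticoid lists extend to the right, and polycomb, feeding receptor and puberty lists to the left.

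Synaptic lists were called in both directions. Of 22 GABA genes, 5 were higher and 9 lower, 63.6% beside 32.7% of all genes, against 4 and 2 in the fit of the 7 groups. Besides Gabrd, the receptor subunit gene Gabra4 rose by 1.74, while Gabre, an epsilon subunit of hypothalamic neurons, had 78.6, 95.5, 67.1, 67.7 and 67.6 CPM in control and 30.9, 27.3, 18.5, 18.3 and 16.6 CPM in K6 (-1.71, SE 0.17, adjusted p = 4.2e-05). K6 was thus below every control for Gabre and above every control for Gabra4 and Gabrd, and PND42 controls had 22.6 to 38.8 CPM of Gabre. Gabrq fell by 1.01, a call not made in that fit, and the synthetic enzymes Gad1 and Gad2 were not called (-0.13 and -0.12).

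Of 36 glutamate genes, 7 were higher and 9 lower, 44.4% beside 32.7% of all genes, against 3 and 3 in the fit of the 7 groups, in which Grm4 was not called. Slc17a7, a vesicular glutamate transporter of thalamus and cortex, rose by 4.32, Grid2ip by 2.93 and the metabotropic receptor gene Grm4 by 0.81, while the transporter gene Slc17a8 fell by 0.81 and the main hypothalamic transporter gene Slc17a6 was not called (0.28). Grm3, a metabotropic receptor also of glia, had 20.9, 22.0, 22.9, 27.0 and 24.9 CPM in control and 52.1, 76.2, 55.5, 59.6 and 58.1 CPM in K6 (1.4, SE 0.11, adjusted p = 1.3e-05). Its control libraries were all below 30 and its K6 libraries all above 50 CPM, with 45.6 to 55.0 in PND42 controls. Of 21 voltage-gated calcium channel genes, 2 were higher and 7 lower, 42.9% beside 32.7% of all genes. Cacna1h, a low-threshold channel, fell by 0.88 and Cacna2d1 by 0.77, the latter not called in the fit of the 7 groups.

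Genes of polycomb, DNA methylation and sirtuins had 2 of 23 higher and 12 lower, with a median of -0.40, and for 15 of them the groups did not overlap (20.9% of all genes). The called share was 60.9%, beside the 32.7% of all genes tested. Dnmt3a, a de novo DNA methyltransferase, had 43.2, 47.0, 40.2, 36.5 and 41.2 CPM in control and 19.9, 23.0, 18.4, 16.5 and 20.9 CPM in K6. K6 was at about the same reduced level in all 5 libraries (-1.03, SE 0.10, adjusted p = 3.8e-05), and PND42 controls had 14.2 to 29.0 CPM. Dnmt3b fell by 1.28, and Tet1, Tet2 and Tet3, which oxidize methylated cytosine, fell by 0.83, 0.62 and 0.78, although none of these 3 was called in the fit of the 7 groups, which called 2 genes of the list higher and 6 lower. The polycomb methyltransferase Ezh2 fell by 0.63, whereas its paralog Ezh1 rose by 0.48 and the polycomb reader Cbx7 by 0.60 (45.6 to 51.4 CPM in control, 62.8 to 77.4 in K6 and 61.7 to 78.2 in PND42 controls).

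The dose was examined by comparing K6 with the groups given 3 (K3) and 12 mg/kg bw/day (K12), which had age scores of 0.952 to 1.93 and 0.829 to 1.32. The quasi-likelihood test of edgeR (Benjamini-Hochberg) called 0 of 14672 genes between K6 and K3 (1659 at an unadjusted p-value under 0.05 and 18 by DESeq2) and 0 of 14672 between K6 and K12 (600 unadjusted and 0 by DESeq2). For Oxt, with 127 ± 45.1 CPM in K3, 85.1 ± 9.28 in K6 and 58.5 ± 27.1 in K12 (mean ± SD, n = 5), the log2 difference of K6 from K3 was -0.69 (95% interval -1.19 to -0.18) and from K12 0.54 (-0.16 to 1.24). For Gpr17 the differences were 0.32 (-0.24 to 0.88) and -0.11 (-0.30 to 0.08), and for Shox2 0.28 (-0.49 to 1.05) and -0.06 (-1.18 to 1.06). The intervals do not show that the doses act alike. K3 replicates 4 and 5 stood apart from the other K3 libraries, with mitochondrial reads at 10.9% and 9.07% against 6.46% to 7.47% and ribosomal protein reads at 3.18% and 3.27% against 1.22% to 1.49%. Without both, 0 of 14865 genes were called between K6 and K3 (783 unadjusted), and the differences were -0.28 (-0.57 to 0.01) for Oxt, -0.04 (-0.28 to 0.19) for Gpr17 and 0.20 (-0.62 to 1.03) for Shox2.

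The effect of K6 differed between the tissues for 2537 of 15067 genes (16.8%) in a fit over MBH and POA libraries at PND22 with the rat as a block, 1307 more positive (8.67%) and 1230 more negative (8.16%) in the MBH. With library sizes alone as scaling these were 964 and 2031. MBH and POA libraries of the same rat number did not deviate together (correlations of deviations from -0.27 to 0.13), and 2934 genes were called without the rat block. The POA libraries labelled K6 had age scores of -1.04 to -0.579, like POA controls of that age, so the interaction carries the same difference in age profile. Ndrg1, a stress- and differentiation-associated gene of oligodendrocytes, had 80.4 ± 8.25 CPM in control and 206 ± 18.9 in K6 of the MBH but 80.2 ± 10.7 and 72.0 ± 10.3 CPM in POA libraries (interaction 1.6 on the log2 scale, SE 0.11, adjusted p = 3.1e-05). Cryab, a small heat shock protein, had 19.4 ± 2.31 and 75.1 ± 25.7 CPM in MBH libraries against 17.2 ± 4.85 and 13.1 ± 2.56 in those of the POA (2.37), and Pgr15l 34.1 ± 6.34 and 7.55 ± 2.89 against 32.2 ± 3.22 and 35.5 ± 4.32 (-2.27). For Oxt the interaction was 3.25 (SE 0.36, adjusted p = 0.00023), with POA levels of 8.33 to 210 CPM in control and 77.7 to 218 in K6.

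POA control replicate 4 had a summed mammillary level of 49.0 CPM, within the range of MBH libraries, and 2405 genes were called without that rat. The count also depended on single other libraries, with 1475 genes without POA K6 replicate 4, 1498 without MBH K6 replicate 4, 1649 without POA control replicate 5 and 1661 without MBH control replicate 5.

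The effect of K6 differed between PND22 and PND90 in the MBH for 745 of 15103 genes (4.93%), 492 more positive (3.26%) and 253 more negative (1.68%) at PND22. The PND90 K6 libraries had age scores of 0.493 to 1.54 and their controls -0.891 to -0.624. Ugt8, which makes the myelin lipid galactosylceramide, had 403 ± 89.1 and 401 ± 60.2 CPM in control and K6 at PND22 but 485 ± 80.2 and 137 ± 20.2 at PND90 (interaction 1.83, SE 0.21, adjusted p = 0.00024). Cldn11, the tight junction protein of myelin, had 412 ± 62.5 and 533 ± 81.2 CPM at PND22 and 495 ± 70.0 and 220 ± 34.4 at PND90 (1.55). Gpr17 was lower in K6 at either age, with 123 ± 12.8 and 21.8 ± 4.6 CPM at PND90 (1.11). For Dnmt3a the interaction was 0.05 (SE 0.17) and for Mkrn3 0.13 (SE 0.27). The count of genes fell to 361 without PND90 control replicate 1 and to 405 without PND90 K6 replicate 2. It fell to 422 and 443 without PND22 control replicate 1 or 2 and to 442 without PND22 K6 replicate 5. Without PND90 control replicate 5 or PND90 K6 replicate 1 it was 445 and 461, and it rose to 1597 without PND90 K6 replicate 4. That library had 12.4% mitochondrial and 2.28% ribosomal protein reads. The rest of its group had 6.74% to 7.68% and 1.28% to 1.51%.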

How the data were processed

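The authors aligned reads to Rnor_6.0, per the labels, by STAR, assigned them to Ensembl genes by featureCounts and deposited the whole-number counts, without normalization or pooling, in 1 table per tissue. Demultiplexing used bcl2fastq 2.20 per the submitters' processing notes. Whether counting used the strand is not given in the sources used here, so overlapping and near-identical genes are uncertain.

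Counts were tested with edgeR 4.0.16 (R 4.3.3) after TMM scaling and filterByExpr at a minimum count of 10. Two-sided quasi-likelihood tests were adjusted (Benjamini-Hochberg) over all genes tested, and an adjusted p-value under 0.05 made a call, whatever the fold change. Only the groups compared entered a fit, without a block, except that the rat number was a block between tissues. SE is the absolute log2 fold change over the square root of F, CPM values are before TMM scaling, and intervals of ratios cover counting error only. In data simulated on these libraries the test recovered 92% of 200 genes changed 2-fold, with 8 false calls.

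The members and gene lists were chosen with earlier results of these data known. Genes were named by rule: the 10 largest rises and falls among called genes that had a symbol, no overlap of groups and at least 1 as mean log2 CPM, up to 4 called genes per list with other members where needed, up to 6 per further test, and the genes the study names. A few other list members were added after their values were seen. The age score and comparisons with other control ages were chosen after seeing the data. Alternatives were DESeq2 1.42.0, other scalings, no filter, limma-trend (limma 3.58.1, prior count 2), a replicate block, 1 fit of the 7 groups of that tissue and age, and leaving out each library. Genes of the MBH and POA were matched by identifier, and 2 of 2 promoters sought were found in RefSeq. Some genes of the lists count in their totals but are not reported here by name.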

Additional observations from a re-analysis of the deposited data

Results flagged for a closer look

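In 11 of 134 groups of 5 libraries tested, 1 library stood far from the other 4 (Dixon's criterion, which chance meets in about 1 group in 20). Among named genes these were K6 replicate 4 for Alox15 (9.23 CPM), K6 replicate 2 for Slc4a1 (1.74 CPM), K6 replicate 1 for Col2a1 (13.9 CPM), K6 replicate 3 for Npw (0.22 CPM) and control replicate 5 for Mkrn3 (2.31 CPM). The groups of Npw and Mkrn3 did not overlap. For Alox15, Slc4a1 and Col2a1 the naming rule had required groups without overlap, so its absence there adds nothing. Among summed marker lists the libraries that stood apart were K6 replicate 5 for endothelial and mural cells (270 CPM), K6 replicate 4 for the choroid plexus (435 CPM) and the habenula (126 CPM), K6 replicate 2 for midbrain dopamine neurons (262 CPM), control replicate 1 for the choroid plexus (21.3 CPM) and control replicate 2 for the hippocampus (26.2 CPM).

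The K6 effect differed between MBH and POA at PND22 for 2537 genes and between PND22 and PND90 in the MBH for 745 genes by the interaction test. The tissue interactions with the smallest p-values were those of Ndrg1 (1.6 on the log2 scale), Cryab (2.37), Ptpn3 (4.35), Wnt9b (4.66), Pgr15l (-2.27) and Gabrd (4.51). Those of age were Ugt8 (1.83), Cldn11 (1.55), Gpr17 (1.11), Elovl1 (1.13), Sema4d (1.06) and Moxd1 (-2.07).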

How the results depend on the processing

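For K6 against control, 1 fit of the 7 groups called 2181 genes, and leaving out 1 library gave 3554 (without control replicate 1) to 5280 (without K6 replicate 1). Other settings gave 4545 to 5379 genes, 4650 of them with a replicate block, and the replicate numbers did not pair the samples (correlations of deviations from -0.095 to 0.257). Of 153 named genes, 0 of those with a call changed direction under any setting, and 40 lost their call in the fit of the 7 groups. Changes of direction were not counted for named genes without a call. Between K6 and K3, DESeq2 called 18 genes and the fit of the 7 groups 1, and between K6 and K12 leaving out 1 library gave 0 to 1 (1 without K6 replicate 1). The tissue interaction ranged from 1475 to 3453 genes with 1 library left out (3453 without MBH K6 replicate 1), and was 2934 without the rat block. The age interaction gave 1165 genes with DESeq2 and 361 to 1597 with 1 library left out.

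For K6 against PND42 controls DESeq2 called 1 gene, and leaving out 1 library gave 0 throughout. PND42 against PND22 controls gave 975 genes with the replicate block and 1052 (without PND22 control replicate 1) to 3548 (without PND42 control replicate 4) with 1 library left out. PND90 against PND22 controls gave 315 genes with DESeq2, 27 without the filter, 1 with the replicate block and 0 to 197 with 1 library left out (197 without PND90 control replicate 4). The causes were not tested. Depth limits statements on genes of few counts, such as Npw and Pparg.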
